A study of Homo sapiens with 3 samples.

Results

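HDAC1 summits were examined at 10 genes of the oxidative and endoplasmic reticulum (ER) stress responses in HepG2, a human hepatocellular carcinoma line. HDAC1 is an enzyme that takes acetyl groups off histone tails and works within repressor complexes. The genes were taken by name, and their summits were all those inside fixed hg19 windows that span each gene plus about 10 kb on each side. The windows held 15 of the 9476 control summits (0.158%) and 21 of the 11553 H89 summits (0.182%). The assay was CUT&Tag, in which a transposase is guided by an antibody and cuts and tags DNA where the target sits. The 2 summit lists come from 1 library of untreated wild-type cells and 1 library of wild-type cells given H89, an inhibitor of the cAMP-dependent kinase PKA. Neither dose nor time of H89 is stated in the labels, and only the series title names HDAC1. The third sample, IgG from untreated cells, was not analysed here, and the values therefore stand without a measured background.

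With 1 library per condition, no difference below has a replicate check and none was tested. Each summit is a single base, and its score, as the authors deposited it, was treated as −log10 p. Positions are 1-based on hg19. Read depth is unknown. Intervals are exact 95% intervals and cover counting error only.

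The oxidative stress response is run by NRF2, the product of NFE2L2. NRF2 is held back by KEAP1 and, once released, binds antioxidant response elements of genes such as HMOX1, TXNRD1, GCLM and SQSTM1. In the ER, misfolded protein activates sensors that lead to the transcription factors ATF4, spliced XBP1 and ATF6. ATF4 also serves the wider integrated stress response and drives DDIT3 and ASNS, while ATF6 and XBP1 drive HSPA5 through ER stress elements. PKA phosphorylates CREB, a factor that binds the cAMP response element (CRE). In the liver these programmes respond to toxic compounds, to heavy protein secretion and to shortage of amino acids.

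The promoters of genes with a summit at the start show which of these elements lie next to them. RefSeq sequences (GRCh38.p14) were found for 9 of the 10 genes, with 17 start sites in all, and 250 bases before each start were searched on both strands. The searched letters were TGACG for the CRE core, TGACNNNGC for the antioxidant response element and TGATGNAAN for the C/EBP-ATF response element. The ER stress element was searched as CCAAT and CCACG with 9 bases of any kind between them. Matches to the CRE core and to the ER stress element did not overlap in the sequences shown. Shown are sequences with a match for 5 of the 6 genes that had a summit at the implied start in both libraries, and the downstream start of TXNRD1, whose summit lies inside the gene. For DDIT3, the other of the 6, no letters matched in this window. Each line holds 1 start site, 5′ to 3′ on the strand of the gene, and capitals mark the matches.
HSPA5 (chr9:125241344-125241593, minus strand): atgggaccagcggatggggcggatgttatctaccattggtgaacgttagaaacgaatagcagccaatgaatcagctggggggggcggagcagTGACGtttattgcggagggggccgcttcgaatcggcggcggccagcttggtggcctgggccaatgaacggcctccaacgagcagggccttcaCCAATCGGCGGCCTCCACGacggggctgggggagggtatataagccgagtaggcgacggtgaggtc
XBP1 (chr22:28800570-28800819, minus strand): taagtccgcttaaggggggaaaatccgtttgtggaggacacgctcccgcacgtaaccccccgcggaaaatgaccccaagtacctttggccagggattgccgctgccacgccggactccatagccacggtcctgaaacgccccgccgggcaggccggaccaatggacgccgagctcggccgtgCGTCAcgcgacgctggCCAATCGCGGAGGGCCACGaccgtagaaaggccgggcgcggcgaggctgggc
ASNS (chr7:97872409-97872658, minus strand): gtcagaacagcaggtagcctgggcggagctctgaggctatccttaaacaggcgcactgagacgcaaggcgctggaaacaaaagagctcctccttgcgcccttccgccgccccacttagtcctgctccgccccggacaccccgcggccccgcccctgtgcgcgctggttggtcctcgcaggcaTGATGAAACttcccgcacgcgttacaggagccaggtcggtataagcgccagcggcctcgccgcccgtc
ATF4 (chr22:39520309-39520558, plus strand): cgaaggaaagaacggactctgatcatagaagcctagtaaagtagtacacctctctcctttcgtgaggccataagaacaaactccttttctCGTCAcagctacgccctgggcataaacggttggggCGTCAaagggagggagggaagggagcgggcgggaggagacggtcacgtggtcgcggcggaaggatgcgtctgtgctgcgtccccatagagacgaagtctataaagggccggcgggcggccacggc
NFE2L2 (chr2:177264728-177264977, minus strand): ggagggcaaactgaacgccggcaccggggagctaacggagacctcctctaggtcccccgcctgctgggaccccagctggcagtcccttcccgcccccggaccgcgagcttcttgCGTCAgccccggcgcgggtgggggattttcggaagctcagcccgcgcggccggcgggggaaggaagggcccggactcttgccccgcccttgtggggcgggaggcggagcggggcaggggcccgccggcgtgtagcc
TXNRD1 (chr12:104286782-104287031, plus strand): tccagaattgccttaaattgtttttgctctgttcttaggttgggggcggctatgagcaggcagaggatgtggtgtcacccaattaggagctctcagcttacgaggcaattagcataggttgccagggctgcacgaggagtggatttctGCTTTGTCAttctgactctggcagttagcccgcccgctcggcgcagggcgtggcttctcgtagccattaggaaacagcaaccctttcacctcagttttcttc

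An ER stress element was present before HSPA5 (66 to 48 bases before the start) and XBP1 (52 to 34 bases before it). It occurred in 0.0740% of all 35116 promoters in the table. The C/EBP-ATF response element lay 68 to 60 bases before this ASNS start, and 3.13% of all promoters held a match. The CRE core was matched in 6 of the 17 start sites of the stress genes, against 21.2% of all promoters. These were both ATF4 starts, which lie 3 bases apart and share most of their sequence, the HSPA5 start and 1 of 2 starts each for XBP1, NFE2L2 and ASNS, while no start of DDIT3, SQSTM1, TXNRD1 or GCLM held it. The sequences shown were picked for holding a match and give no share of their own. The antioxidant response element was matched in 3 of the 8 start sites of the oxidative stress genes, against 10.9% of all promoters. The matches lay before both TXNRD1 starts and before GCLM, and none was found before the 3 SQSTM1 or the 2 NFE2L2 starts. HMOX1 was not searched. A match is a description of letters and not a binding site. These sequences are on another build than the summits, and no summit was placed on them.

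HDAC1 summits were present in the windows of 9 of the 10 stress genes in the control and of all 10 with H89. These counts include summits in the flanks, where all summits of HMOX1 and GCLM lie. With the 10 kb flanks left out, 8 genes had a summit in the control and 7 with H89, and the approximate edge at ATF4, described below, matters for this. Of 50 kb tiles laid end to end along the primary chromosomes, 10.7% held a control summit and 12.4% an H89 summit. The tiles were not matched to genes or to the window lengths, which ran from 23 to 156 kb, so this share describes the genome and is no expectation for a gene. Together the windows covered 482 kb and held 31.1 control and 43.6 H89 summits per Mb, against 2.98 and 3.62 per Mb over the primary chromosomes. This contrast is not matched to genes either, since the windows lie on genes and most hold a neighbouring gene. It is therefore no measure of enrichment at stress genes. The 5 windows of the ER and integrated stress genes (ATF4, DDIT3, HSPA5, XBP1 and ASNS) covered 143 kb. They held 7 control and 10 H89 summits, or 49.0 and 69.9 per Mb. The 5 windows of the oxidative stress genes covered 339 kb, of which TXNRD1 took 156 kb. They held 8 control and 11 H89 summits, or 23.6 and 32.4 per Mb. The numbers of summits were thus nearly equal, and the densities of the sets differ through window length. ATF4 had the densest window in both libraries, with 130 control and 217 H89 summits per Mb.

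No window held fewer summits with H89 than in the control. At SQSTM1, ATF4, DDIT3 and GCLM there were more with H89, and at the other 6 genes the numbers were equal. The share of all genes with more, equal or fewer summits was not measured. With the 10 kb flanks left out, ATF4 kept a control but no H89 summit, and the further H89 summits of DDIT3 and GCLM fell away. Summed over the windows, H89 had 1.40 times the control number (interval 0.688 to 2.92), against 1.22 over all summits, so the members' ratio is not distinguishable from the general one. It was 1.38 (0.504 to 3.94) in the oxidative windows and 1.43 (0.491 to 4.42) in the ER windows. Within the gene bodies alone, with the 10 kb flanks left out, each library had 11 summits and the ratio was 1 (0.393 to 2.54). That equality depends on the approximate edge, since the shared ATF4 start site is inside by 34 bp in the control and outside by 59 bp with H89, and an H89 summit of SQSTM1 is outside by 51 bp.

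**Figure D1:**
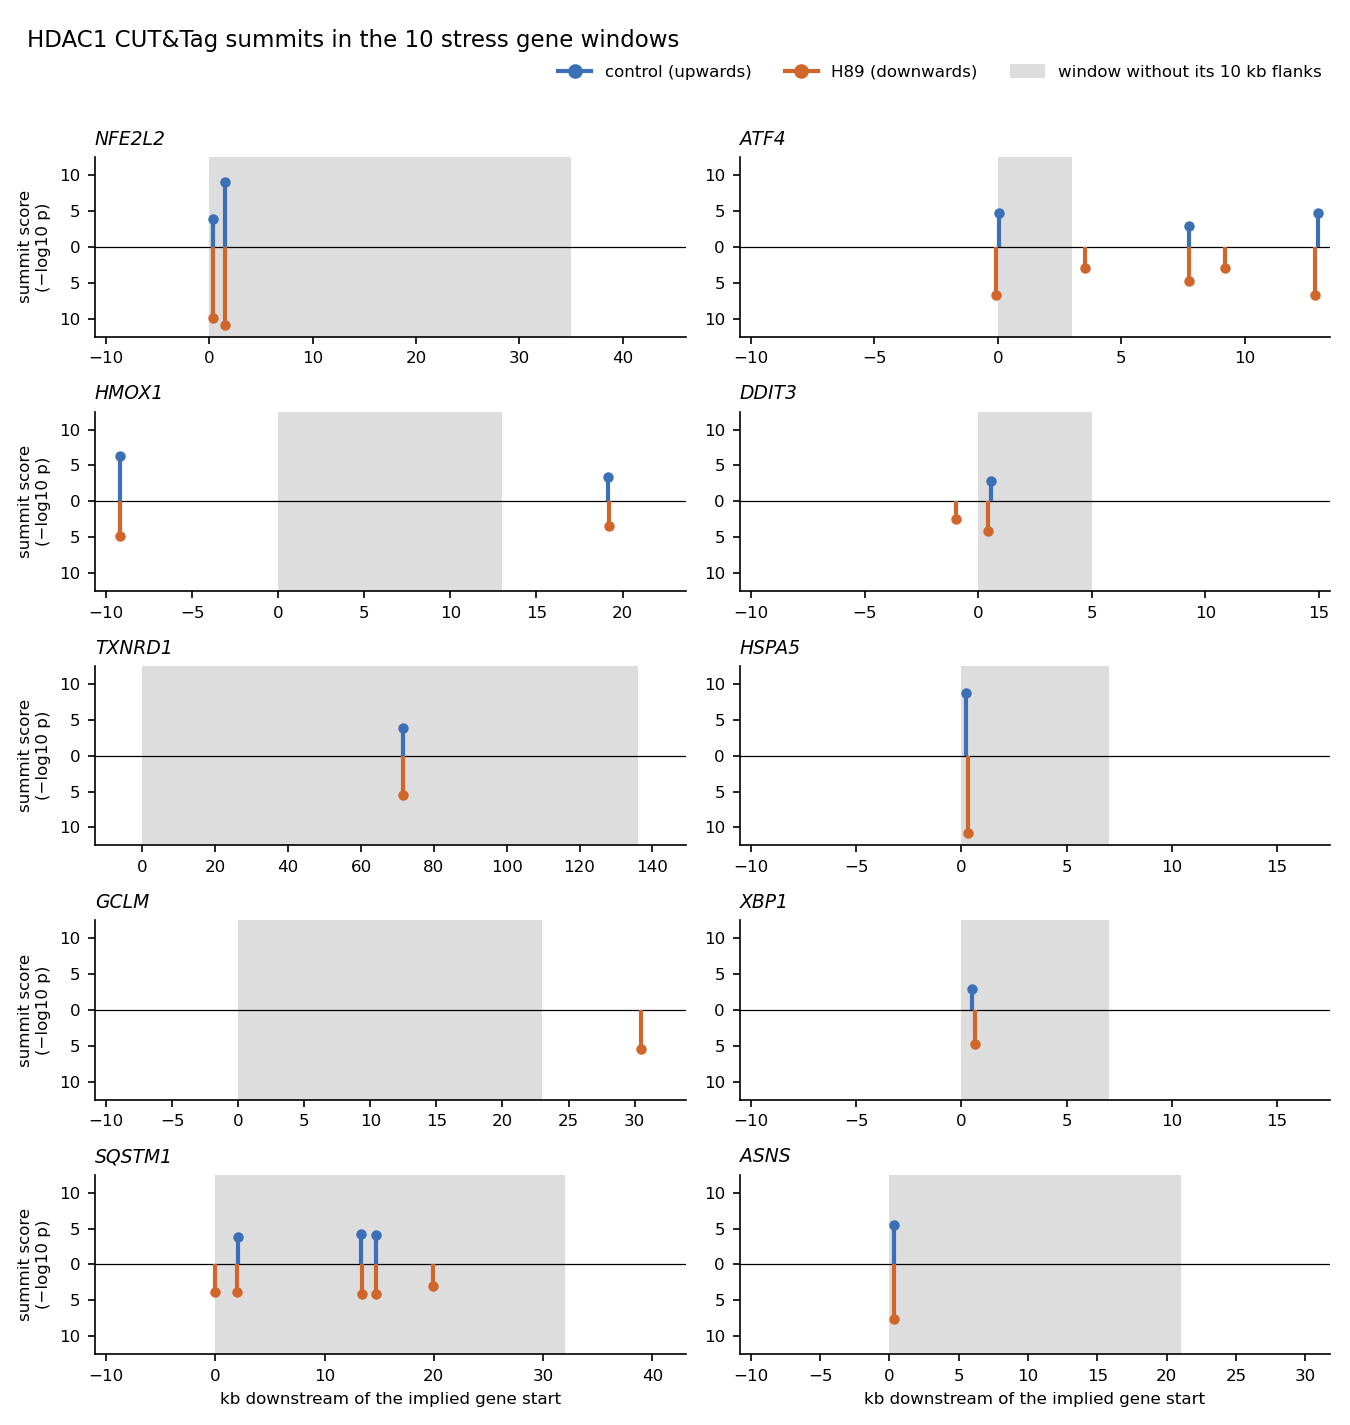
Summits of the control (blue, upwards) and H89 (orange, downwards) lists in each window, by distance in kb from the gene start that the window implies (x axis, downstream to the right) and score (y axis, −log10 p). Grey marks the window without its 10 kb flanks; summits sit at the left edge of the grey area in NFE2L2, ATF4, DDIT3, HSPA5, XBP1 and ASNS in both libraries.

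More of these genes had a summit at the start than at the end, though many summits lay elsewhere in the windows. The start was taken as the window edge moved in by 10 kb on the side of the 5′ end, which is approximate, since the windows give the flank as about 10 kb and their edges in whole kb. In the control, 6 of the 10 genes (NFE2L2, ATF4, DDIT3, HSPA5, XBP1 and ASNS) had a summit within 2 kb of it. With H89 the same 6 genes and SQSTM1 did. SQSTM1 was just outside that distance in the control, with a summit 2.03 kb from the implied start. At the gene end placed in the same way, no gene had a control summit and only ATF4 had an H89 summit within 2 kb. No gene table on hg19 was used, so the share of all genes with a summit at their start was not measured.

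Most scores at these genes could be read as steps of small counts. Of 42 background means per list, some were fitted to its scores and the others were preset, as described below. Each score was compared with −log10 Poisson probabilities of k or more counts at these means, and k is called the count step. A score within 0.0001 of exactly 1 such value was placed on that step, which held for 95.6% of all control and 96.1% of all H89 scores. It held for all 15 control summits and 20 of the 21 H89 summits at the stress genes. Their median step was 3 in the control and 4 with H89, and the median over each whole list was 3. How the caller turned counts into scores is not stated, so the step may differ from the count itself by a fixed amount.

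Among the oxidative stress genes, NFE2L2 carried the highest scores. Its window (chromosome 2, 178085 to 178140 kb) held the same pair of sites in both libraries. The site about 1.5 kb into the gene had a control score of 9.04 (position 178128454) and an H89 score of 10.88 (position 178128487), steps 6 and 7. In the control 89.7% of all summits scored lower than this site, and with H89 91.4%. The site nearest the start had a control score of 3.88 (position 178129648) and an H89 score of 9.97 (position 178129664). That step from 5 to 10, at background means of 0.473 and 0.477, was the widest difference among the shared sites of the 10 genes. If the step is taken as a count, the H89 to control ratio is 2 with an interval of 0.623 to 7.46, so even this difference is within counting error.

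HMOX1 encodes heme oxygenase 1, which breaks down heme. Its 2 sites lay outside the gene body in both libraries (window on chromosome 22, 35767 to 35800 kb). The upstream site, 9.22 kb before the implied start, had a control score of 6.37 (position 35767783) and an H89 score of 4.81 (position 35767784), steps 5 and 4. It was the only shared site of the 10 genes with a lower step with H89, and the ratio of 0.800 had an interval of 0.159 to 3.72. The downstream site, about 19 kb from the start, had a control score of 3.45 (position 35796127) and an H89 score of 3.44 (position 35796192), both on step 2. It lies on the side of MCM5, the neighbouring gene in the RefSeq table, so it cannot be assigned to HMOX1 from position alone.

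TXNRD1, which encodes a thioredoxin reductase, and GCLM, which encodes the modifier subunit of the glutathione-making enzyme glutamate-cysteine ligase, had no summit at the implied start. The TXNRD1 window (chromosome 12, 104599 to 104755 kb) held 1 site deep in the gene, 71.6 kb from that start. This site had a control score of 3.88 (position 104680620) and an H89 score of 5.50 (position 104680607), steps 3 and 4. RefSeq lists 2 start sites for TXNRD1 that lie 71.3 kb apart on GRCh38.p14, and the promoter of the downstream one is shown above. The builds differ, so the distances stand side by side and the summit was not assigned to a start. GCLM was the only gene without a control summit in its window (chromosome 1, 94342 to 94385 kb). Its H89 summit at 94344497 scored 5.49, on step 3, and lay about 7.5 kb beyond the implied gene end, on the side of the neighbouring gene DNTTIP2. In the control the nearest summit was at a distance of 32.5 kb and scored 2.38.

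SQSTM1 encodes p62, an autophagy receptor that also binds KEAP1. Its window (chromosome 5, 179223 to 179275 kb) held 3 control and 5 H89 summits, and at the 3 shared sites the scores were nearly equal. The site 2.03 kb into the gene had a control score of 3.88 (position 179235031) and an H89 score of 3.87 (position 179235012). A site about 13 kb in had a control score of 4.23 (position 179246314) and an H89 score of 4.08 (position 179246387). The third shared site, 14.7 kb in, had a control score of 4.14 (position 179247674) and an H89 score of 4.13 (position 179247701). None of these sites differed in step between the libraries, with steps of 3, 7 and 4. At the second, the fitted background mean differed, at 0.946 for the control and 1 for H89.

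Both further H89 summits at SQSTM1 scored low. The first, at 179232949, lay 51 bp upstream of the implied start and scored 3.87 on step 3, and the closest control summit was at 2.08 kb. The second, at 179252935, scored 2.96 on step 2, with the closest control summit at 5.26 kb. RefSeq lists 3 start sites for SQSTM1, the last of them 14.5 kb from the first on GRCh38.p14, beside 14.7 kb for the third shared site on hg19. The builds differ, and only the implied start was used where genes with a summit at the start were counted. The neighbour MGAT4B overlaps the first part of SQSTM1 there, so the summit at the implied start cannot be assigned to either gene by position.

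At the ER and integrated stress genes all 7 shared sites scored higher with H89, as did 50.2% of all shared summits. Of the 7, 3 lie in the ATF4 window, and 2 of those lie beyond the implied end of ATF4. ATF4, the transcription factor at the centre of the integrated stress response, had its 3 shared sites in a window of 23 kb (chromosome 22, 39906 to 39929 kb). The site at the implied start had a control score of 4.77 (position 39916034) and an H89 score of 6.68 (position 39915941), steps 3 and 4. The site 7.72 kb downstream, which is 4.72 kb beyond the implied gene end, had a control score of 2.97 (position 39923721) and an H89 score of 4.76 (position 39923727), steps 2 and 3. The third site, near the far edge of the window, had a control score of 4.77 (position 39928945) and an H89 score of 6.68 (position 39928848). It lies farther beyond the end of ATF4, on the side of the neighbouring gene RPS19BP1. The window also held 2 H89 summits without a control partner, at 39919522 and 39925182, each scoring 2.96 on step 2. These lie 0.522 and 6.18 kb beyond the implied end, so that 2 of 3 control and 4 of 5 H89 summits in this window lie past ATF4.

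DDIT3 encodes CHOP, a transcription factor that promotes cell death under lasting ER stress. Its site 0.572 kb into the gene (window on chromosome 12, 57900 to 57925 kb) had a control score of 2.84 (position 57914428) and an H89 score of 4.08 (position 57914560). The steps were 4 and 7, but the background mean was also higher with H89, 1 against 0.473, so the steps do not share a scale. A second H89 summit at 57915981, 0.981 kb upstream of the start, scored 2.45, the lowest score among the stress genes, and was the only one not placed on a step. MARS1, MBD6 and DCTN2 all lie within 10 kb of DDIT3 in the RefSeq table, so these summits cannot be assigned to DDIT3 by position alone.

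HSPA5, XBP1 and ASNS each had a single site, at the gene start, in both libraries. HSPA5 encodes BiP, the main chaperone of the ER lumen. Its summit (window on chromosome 9, 127987 to 128014 kb) had a control score of 8.72 (position 128003785) and an H89 score of 10.81 (position 128003695), steps 5 and 6. In the control 88.2% of all summits scored lower, and with H89 90.5%, which places it, with NFE2L2, among the highest scores of the set. The promoter shown above with its ER stress element and CRE core belongs to this gene.

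XBP1 encodes the factor that is activated by unconventional splicing of its mRNA in ER stress. Its summit (window on chromosome 22, 29180 to 29207 kb) had a control score of 2.97 (position 29196515) and an H89 score of 4.76 (position 29196361), steps 2 and 3. In the control 12.9% of all summits scored lower, and with H89 45.7%. ASNS encodes asparagine synthetase, a target of ATF4 in amino acid shortage. Its summit (window on chromosome 7, 97471 to 97512 kb) had a control score of 5.50 (position 97501675) and an H89 score of 7.66 (position 97501677), steps 3 and 4. At HSPA5, XBP1 and ASNS alike, the difference was 1 step at near-equal background means.

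**Figure D2:**
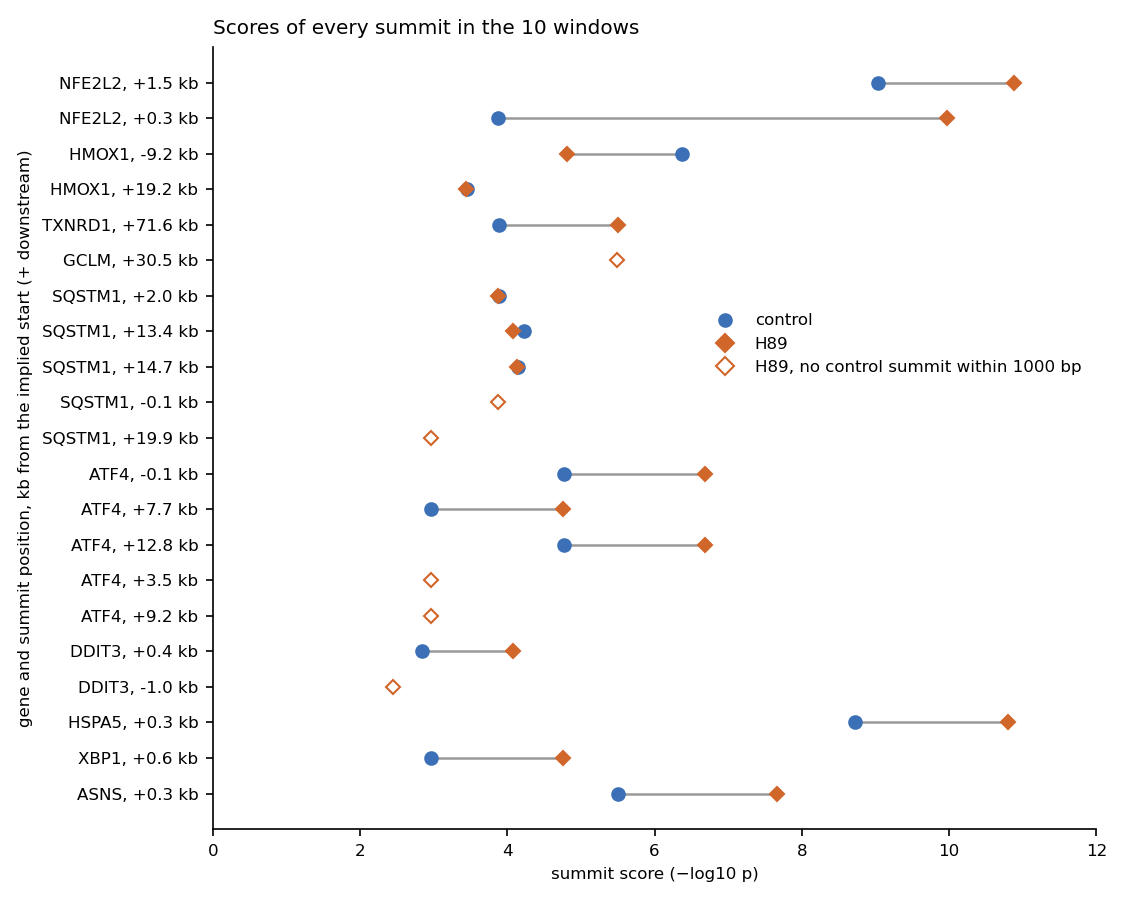
Score (x axis, −log10 p) of each summit in the 10 windows, in rows named by gene and distance of the summit from the implied start. Circles are the control, filled diamonds H89, and open diamonds H89 summits with no control summit within 1000 bp; lines join shared sites. The widest line is the NFE2L2 site at 0.336 kb, from 3.88 to 9.97, and the HMOX1 site at 9.22 kb upstream is lower with H89.

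Every control summit at the stress genes had an H89 counterpart. An H89 summit lay within 1000 bp of all 15 (100%, interval 78.2 to 100), against 87.6% of control summits in the whole list. In the other direction a control summit lay that near for 15 of 21 (71.4%, interval 47.8 to 88.7), close to the 72.2% of the whole H89 list. Positions were close, with offsets from 1 to 154 bp and a median of 33 bp, against 53 bp over all shared summits. The 6 H89 summits without a partner scored between 2.45 and 5.49. A summit listed in 1 library only is a call against a threshold, so its absence from the other list does not show absence of HDAC1.

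A score more than 0.1 higher with H89 was found at 10 of the 15 shared sites (66.7%, interval 38.4 to 88.2), against 50.2% of the 8189 shared summits of the whole genome. The control score was the higher at 2 sites (13.3%, interval 1.66 to 40.5), against 14.5%, and at 3 the scores were within 0.1. The median difference, H89 minus control, was 1.79, against 0.20 over all shared summits. Because most scores lie on steps, such a median can jump with a small change in the share of higher sites, and it adds little to that share. Both shares have intervals that include the genome share, so the members as a set were not distinguishable from the shared summits in general.

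The sets differed in their counts. All 7 shared sites of the ER and integrated stress genes were higher with H89 (interval of the share 59.0% to 100%), against 50.2% of all shared summits, with a median difference of 1.91. At the oxidative stress genes 3 of 8 were higher (37.5%, interval 8.52 to 75.5), namely both NFE2L2 sites and the TXNRD1 site, and the median difference was -0.01. The remaining oxidative sites were the 3 of SQSTM1 and both of HMOX1, so the SQSTM1 window weighs heavily in this share. The 7 sites come from 5 genes, 3 of them from the ATF4 window, and the genes were chosen with earlier results known. The intervals treat sites as independent, so that the genome share lies below the interval of the 7 sites is a description and no test. The median differences of the sets jump with the steps in the same way and add little to the shares. The intervals of the sets overlap, and a difference between the sets was not tested.

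**Figure D3:**
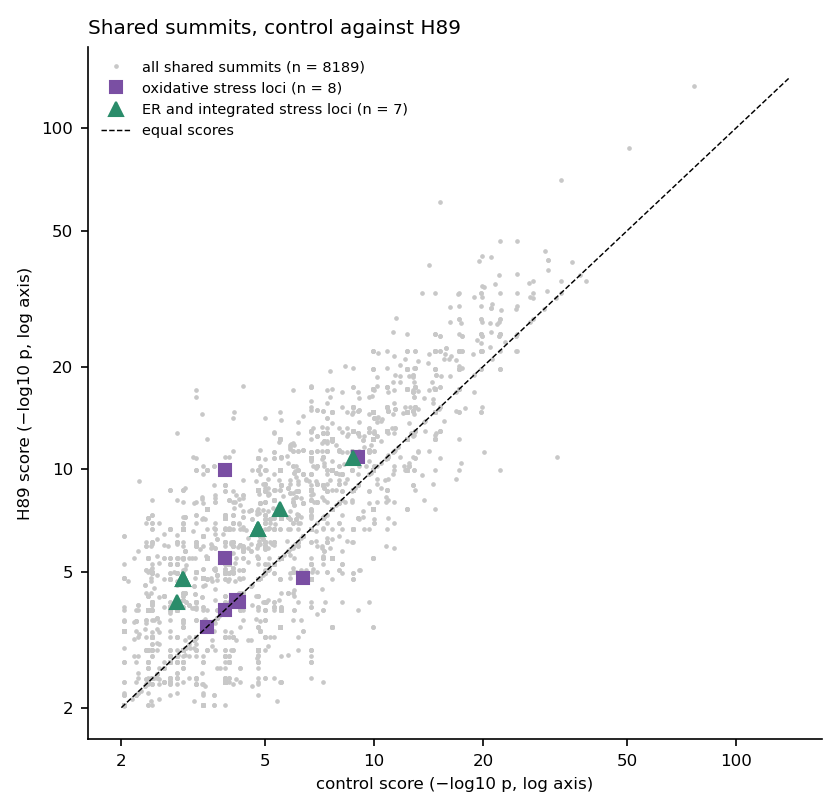
Control score (x axis) against H89 score (y axis) of all 8189 shared summits, both as −log10 p on log axes, with the shared summits of the oxidative (squares, 8) and of the ER and integrated stress genes (triangles, 7) marked. All 7 triangles lie above the line of equal scores, some on top of each other, while 3 of the 8 squares lie above it by more than 0.1.

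In steps, 10 of 15 shared sites were higher with H89, 4 were equal and 1 was lower. The 10 include DDIT3, whose steps do not share a scale, and among the 13 pairs with corresponding background means 9 were higher, 3 equal and 1 lower. Over the 7742 shared summits of the genome with both scores on a step, 49.1% were higher and 12.3% lower with H89. These genome shares were not limited to pairs with corresponding means, so they stand beside the 15 sites and not the 13. In 9 of the 15 pairs the steps differed by exactly 1. Of the 7742 shared summits, 31.5% were 1 step higher and 11.2% were 1 step lower with H89. Taken as a count, step 3 has an exact Poisson interval of 0.619 to 8.77 and step 4 one of 1.09 to 10.2. In all 15 pairs the intervals of the libraries overlapped, and in none did the interval of the step ratio exclude 1. At such small steps this says little, since even steps of 5 and 10 at NFE2L2 gave an interval of 0.623 to 7.46. No share over all shared summits stands beside it, and DDIT3 cannot be judged in this way. Under that reading no difference at the other stress gene sites could be told from counting error, and none was shown to be absent.

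**Figure D4:**
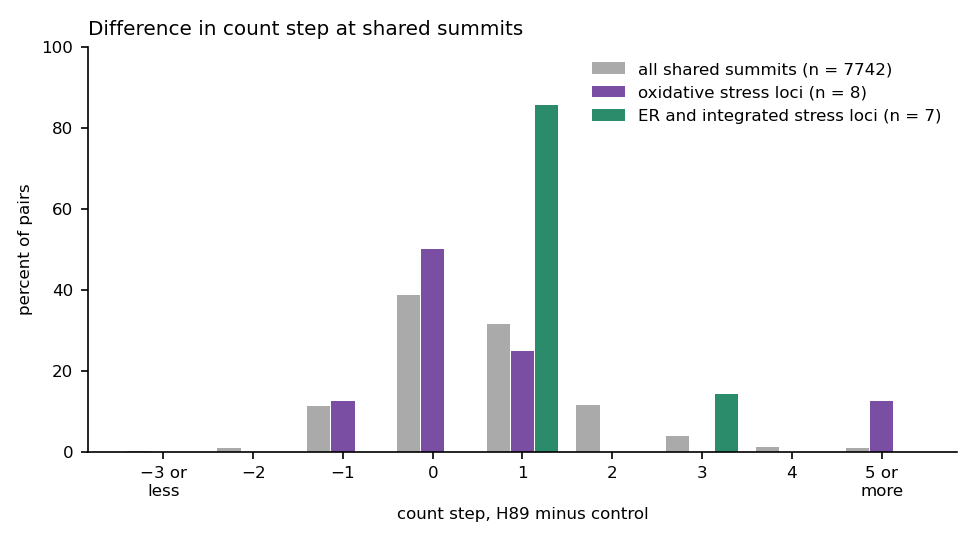
Percent of shared summits (y axis) by the difference in count step, H89 minus control (x axis), for all shared summits with both scores on a step (grey, 7742), for the oxidative stress genes (purple, 8) and for the ER and integrated stress genes (green, 7). Of the ER and integrated stress sites, 6 of 7 are 1 step higher with H89, against 31.5% of all shared summits. Of the oxidative stress sites, 4 of 8 do not differ, against 38.6%.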

How the data were processed

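The data are 2 tables without a header, 1 for each HDAC1 library, and were assigned through their peak names, which hold the words control and treatp and fit the titles of the untreated and the treated sample. Per the submitters' processing notes, Bowtie 0.12.2 and hg19 were used. Not given in the sources used here are the peak caller, its control library and threshold, and whether duplicate reads were removed. The authors deposited 1-bp summits with a score, read from the values as a −log10 p-value without adjustment. Peak widths and read counts were not analysed here.

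Windows, members and lists were chosen with earlier results of these data known. Every summit of all 10 genes is named. Partners are summits of the other list within 1000 bp, and pairs are mutually nearest. Score differences up to 0.1 counted as equal. Count steps used 42 background means: 1 fitted to the commonest score between 5 and 6, read as 3 or more counts, multiples up to 20 in steps of 0.5 of a base mean fitted likewise between 4 and 5, and a mean of 1. With so many means some matches can be coincidental. That base mean was 0.0473 for the control list and 0.0477 for the H89 list. The means, the 2 kb distance from a start and the use of steps were chosen after seeing the scores and positions. Gene strands came from the RefSeq promoter table, that of HMOX1 from textbook knowledge. The RefSeq gene table (GRCh38.p14) gave neighbours only. Pairing and step functions were tested on simulated data. Calculations used scipy 1.17.1, pandas 2.3.3 and numpy 2.4.6, and plots matplotlib 3.10.9, under Python 3.11.15. Alternatives were other window edges, a minimum score of 5, merging within 500 bp, other pairing distances and another limit for equal scores.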

Additional observations from a re-analysis of the deposited data

How the results depend on the processing

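Of 47 recomputed values, 38 were labelled as the same as the main value and 9 as moved, by a rule not stated here. A value labelled as the same was not always close. With windows narrowed to about the gene alone, control summits fell from 15 to 11. The genes with an H89 summit fell from 10 to 7. Both were labelled as the same, as was a rise from 66.7% to 83.3% of pairs higher with H89, without the SQSTM1 window. With summits scoring 5 or more only, the windows held 4 control and 8 H89 summits, at 4 and 6 of the 10 genes. The share with a partner was then 75.0% of control and 37.5% of H89 summits, and all 3 remaining pairs (100%) were higher with H89. The minimum was applied to both lists, so a partner scoring below 5 counted as absent. The HMOX1 pair, the only one with a lower step with H89, was lost through its H89 score of 4.81. These shares thus follow in part from the cut, and no share over all summits at this cut stands beside them. With windows narrowed to about the gene alone, 11 H89 summits were left, of which 90.9% had a control partner. Without the ATF4 window 58.3% of pairs were higher with H89, and without the SQSTM1 window 83.3%, both alternatives chosen after seeing the data, as was the use of count steps (66.7%). With 1 library per condition and unknown depth, no replicate could be left out. No paired analysis was possible because each condition has 1 library. Window edges from the rule, rather than an hg19 gene table, limit every statement on gene starts.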

Other observations

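Beyond the windows, the nearest summits on the upstream side differed between the lists at 4 of the 5 ER and integrated stress genes. The share of all genes with such a difference was not measured, so this count is a description only. Of all H89 summits, 72.2% had a control summit within 1000 bp. At HSPA5 the nearest upstream summit lay 10.2 kb beyond the window with H89 (score 2.96) and 495 kb beyond it in the control. At XBP1 the distances were 8.51 kb with H89 (score 3.87) and 72.5 kb in the control, and at ATF4 7.47 kb (score 2.77) and 110 kb. At DDIT3 the H89 summit lay 15.9 kb beyond the window (score 3.44) and the control summit 163 kb. At TXNRD1 the same strong site stood 275 kb upstream in both lists, with scores of 19.67 with H89 and 19.70 in the control. At ASNS, the remaining ER and integrated stress gene, the upstream site was about 89 kb beyond the window in both lists. A gap of the same kind stood downstream of SQSTM1, an oxidative stress gene, with about 24 kb for H89 (score 3.44) and 962 kb in the control. The downstream distances also differed at DDIT3 (18.4 kb with H89, 51.4 kb in the control) and ASNS (724 and 825 kb). They were nearly equal at HSPA5, XBP1 and ATF4. The H89 list is longer, and all 4 of the nearer upstream H89 summits scored below 4.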
